A study of Mus musculus with 2 samples.

Results

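The mouse holds a pair of imprinted gene clusters that are described here at the level of single methylated sites: the Dlk1-Meg3 domain on chromosome 12 (chr12:109400000-110300000, GRCm38) and the Snrpn-Ube3a domain on chromosome 7 (chr7:59200000-62500000, GRCm38). The 8 genes Dlk1, Meg3, Rian, Mirg, Snrpn, Ube3a, Ndn and Magel2 were chosen by name, and every listed site inside the coordinates of the domains was taken, whatever its motif or value. The Dlk1-Meg3 domain held 1157 of the 1016209 sites listed in undifferentiated cells and 1405 of the 1108689 listed after differentiation. The Snrpn-Ube3a domain held 319 and 324. The 8 genes are 8 of 49997 RefSeq genes with a position.

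The sites come from methylRAD sequencing of F9 cells, a mouse embryonal carcinoma line that grows in a stem-cell-like state and differentiates when given retinoic acid. There was 1 library of undifferentiated cells, kept on gelatin, and 1 library of cells taken at day 4 of differentiation in low-attachment dishes with 1 µM retinoic acid, so no result below has a replicate check. The series was made to study how enhancers of pluripotency genes are controlled in such cells. No genetic change was labelled for either library, and both are the same single line.

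In an imprinted domain, a control region is methylated on the chromosome inherited from 1 parent only, and that mark decides which parental copy of each gene is used. In the Dlk1-Meg3 domain the intergenic control region, called IG here, is methylated on the paternal copy. Dlk1, Rtl1 and Dio3 are then expressed from the father's chromosome, and the noncoding RNAs Meg3, Rian and Mirg from the mother's. In the Snrpn-Ube3a domain the control region covers the Snrpn promoter and is methylated on the maternal copy. Snrpn, Ndn and Magel2 are expressed from the father's chromosome, whereas Ube3a is expressed from the mother's in neurons. MethylRAD does not tell the parental copies apart. Its enzyme, FspEI, needs a methylated cytosine to cut, so a listed CCGG site is one at which methylated DNA was read, and CCAGG and CCTGG sites report methylation outside CpG. A site missing from a table may be unmethylated or may have fallen below the lowest listed count of 5, and it is called unlisted.

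The promoter sequences show where the assay could look in these genes. MethylRAD reads CCGG, which is the same on both strands, and 52.8% of the 32851 RefSeq promoter windows (250 bases before to 50 after a gene start, GRCm38.p6) held it at least once. The 250 bases before 3 gene starts are printed 5′ to 3′ on the gene's own strand, with each CCGG in capitals. They are the Snrpn start inside the control region (shared with Snurf), the Meg3 start and the Ube3a start, which are all of the members' promoters with a CCGG.

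Snrpn, chr7:60005200-60005449, minus strand: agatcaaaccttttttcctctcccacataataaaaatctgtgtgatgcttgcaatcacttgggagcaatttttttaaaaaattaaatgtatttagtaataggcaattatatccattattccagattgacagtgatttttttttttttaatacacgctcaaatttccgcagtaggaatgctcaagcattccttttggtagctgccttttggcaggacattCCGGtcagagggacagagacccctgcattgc
Meg3, chr12:109540746-109540995, plus strand: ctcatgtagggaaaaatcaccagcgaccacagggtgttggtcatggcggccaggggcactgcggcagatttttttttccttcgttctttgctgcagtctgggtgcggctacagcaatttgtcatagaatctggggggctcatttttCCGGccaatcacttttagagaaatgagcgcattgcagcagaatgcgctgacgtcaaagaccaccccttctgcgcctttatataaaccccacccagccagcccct
Ube3a, chr7:59228500-59228749, plus strand: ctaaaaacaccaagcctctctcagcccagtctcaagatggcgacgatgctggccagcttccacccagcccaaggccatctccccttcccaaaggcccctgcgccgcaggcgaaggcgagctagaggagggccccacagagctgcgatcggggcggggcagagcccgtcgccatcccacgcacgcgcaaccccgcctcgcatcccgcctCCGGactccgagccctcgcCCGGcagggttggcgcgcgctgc

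The 3 sequences together held 4 CCGGs, 1 before Snrpn, 1 before Meg3 and 2 before Ube3a. None of the 4 was listed in either library. Among all 39736 CCGGs in RefSeq promoter windows, 10.3% were listed before and 11.7% after differentiation, and 85.6% in neither library, so an unlisted promoter CCGG was the common case. A motif match is a description of the letters, and an unlisted one does not show that the cytosine is unmethylated.

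A level below is the summed CCGG count of a region per 1000000 CCGG counts of its library (CCGG totals were 16687588 before and 15705436 after differentiation). A ratio is the differentiated over the undifferentiated level on the log2 scale, and a site unlisted in 1 library was given 4 counts there, so its fold is a lower bound with this scaling only. Folds of rises given as at least a value are smaller with the other scalings named below. Fisher's exact test, two-sided, was run on read counts. It compares the 2 libraries and not the conditions, and intervals are 95% intervals that cover counting error only, since reads made by PCR without molecular identifiers are not independent molecules. A site or gene was called when its Benjamini-Hochberg adjusted p over all sites or genes of the genome was under 0.05 and its change at least 2-fold. Other scalings of the libraries lower every ratio by a constant, by 0.16 when the median ratio of well-read sites is set to 0 and by 0.23 with the divisors behind the deposited RPM values. The median ratio of all tested CCGG sites was 0.02 on the scale used here.

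The IG control region (chr12:109526700-109530400) lies between 14.3 and 10.6 kb before the Meg3 start, and it was read at few sites in both libraries. It held 5 listed CCGG sites, 4 in each library, with 94 counts before and 123 after differentiation. Most of the reads came from a pair of neighbouring sites near its Meg3 end. The site at 109529757 had 45 counts and then 69, and the site at 109529731 had 36 and then 42. The other 3 sites were read at the edge of detection, with 6 and 5 counts at 109527391, 7 counts and unlisted at 109528624, and unlisted and 7 counts at 109526735. None of the 5 was called. The largest of the 5 by count, 109529757, had a log2 ratio of 0.70 and an adjusted p of 0.0481 by Fisher's exact test, and its 1.63-fold change did not reach 2-fold. CCAGG and CCTGG sites in the region were 4 in number and also low. Only the one at 109526779 was listed in both libraries, with 5 and 6 counts. The one at 109526726, unlisted and then at 6 counts, lies within 16 bp of the CCGG site at 109526735, and sites so close can share reads. The one with most reads, at 109527435, had 17 counts before differentiation and none listed after it.

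The difference between the IG region and the rest of its domain did not pass the test. Its level was 1.38-fold higher in the differentiated library (log2 0.46, interval 0.07 to 0.86, Fisher's exact p = 0.0194), and that of the remaining 686 sites was 1.17-fold higher (log2 0.23, interval 0.21 to 0.26, Fisher's exact p = 1.52e-76). The 2 ratios differed by 0.23 on the log2 scale, with a Fisher's exact p of 0.256. Over 10 alternatives this difference lay between -0.01 and 0.31, with p from 0.148 to 1, and the lowest value was reached when the site with most counts in the IG region, 109529757, was left out of it. The higher level of the IG region passed the threshold neither with median-ratio scaling (log2 0.31, p = 0.125) nor with the RPM divisors (log2 0.24, p = 0.230), by the same exact test. The rest of the domain passed with median-ratio scaling (log2 0.08, Fisher's exact p = 1.76e-09) and no longer passed with the RPM divisors (log2 0.0052, Fisher's exact p = 0.680). The IG region held 1.35 listed CCGG sites per kb and the rest of the domain 0.765. Its median site counts of 21.5 and 24.5 were below those of the rest, 36 and 33. Just outside the region, the nearest site on the Dlk1 side, 109526677, had 7 counts and was then unlisted. On the Meg3 side no CCGG site was listed for 5.0 kb, up to 109535404 with 66 and 50 counts.

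**Figure D1:**
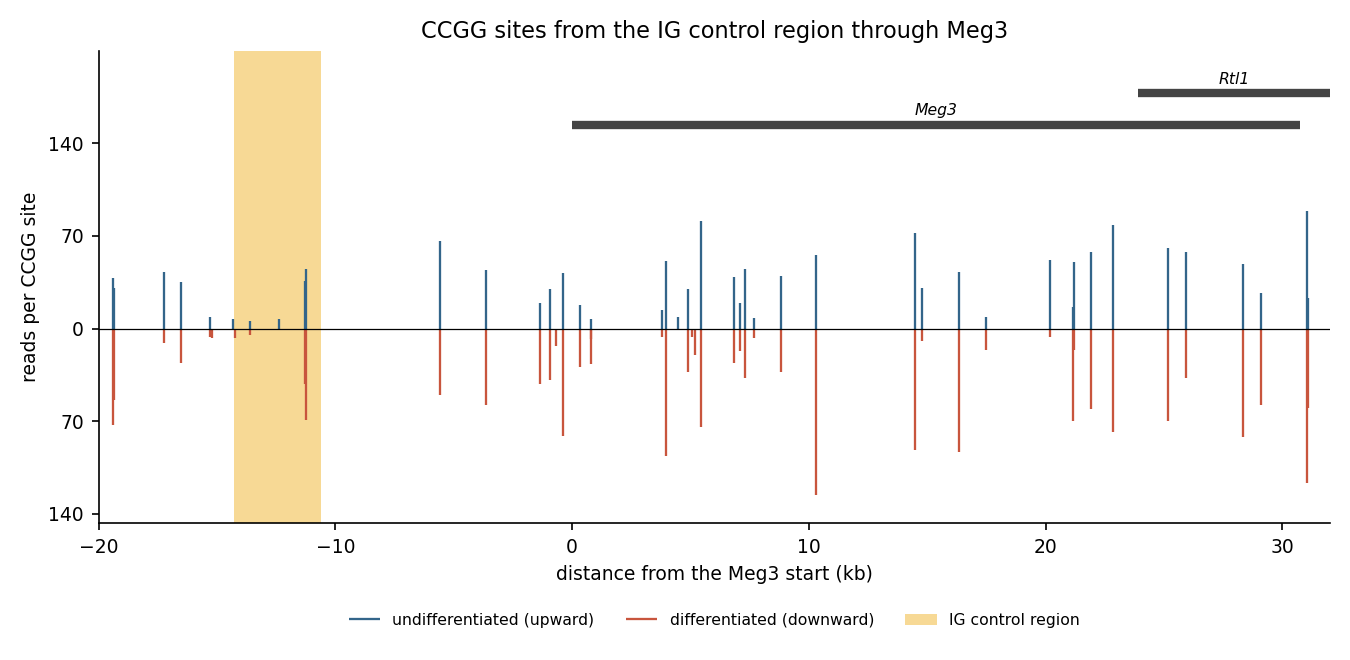
Reads per CCGG site (vertical axis, undifferentiated upward, differentiated downward) by distance from the Meg3 start in kb, with the IG control region shaded and gene spans as bars. Inside the shaded region only the pair of sites near its right edge, with 36 and 45 counts upward and 42 and 69 downward, stands clear of the base line, whereas sites of Meg3 reach 81 and 126 counts.

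The Snrpn control region (chr7:60003100-60005400) had no listed site of any motif in either library. It covers the Snrpn start at 60005199 and most of the first sequence printed above. The nearest listed CCGG sites were 8.72 kb to one side, at 59994376 with 10 counts before differentiation, and 4.60 kb to the other, at 60010002 with 8, and neither was listed at day 4. The site-free stretch was therefore 15.6 kb long. The region is short and the domain is sparse: at the density of the rest of the domain, 0.0846 sites per kb, a region of this length would hold 0.195 sites. At most 4 counts per site could have gone unseen, so neither a ratio nor a comparison with the rest of the domain could be had. At least 1 CCGG is present, 28 bases before the Snrpn start at 60005227, and it was unlisted in both libraries.

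The domains as a whole differed in how densely they were read. In the Dlk1-Meg3 domain 691 CCGG sites were listed in either library, 0.768 per kb, with 25078 and 27849 counts. In the Snrpn-Ube3a domain there were 279, which is 0.0845 per kb, with 3978 and 3604 counts. The median count per listed site in the Dlk1-Meg3 domain was 36 before and 33 after differentiation (interquartile ranges 17 to 59 and 15 to 64). It was 14 in both libraries in the Snrpn-Ube3a domain (interquartile ranges 9 to 22 and 8 to 24). The genome-wide medians were 19 and 17, so typical sites of the chromosome 12 domain lay above them and those of the chromosome 7 domain below. How many CCGG motifs each domain holds was not analysed here, so a sparse stretch may hold few motifs or few methylated ones.

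Sites listed in 1 library were shared with the other more often in the Dlk1-Meg3 domain. Of its sites in the undifferentiated library, 91.2% were also listed in the differentiated one, and 88.1% the other way. In the Snrpn-Ube3a domain the shares were 68.3% and 80.8%, with 76 sites listed only before and 39 only after differentiation. For all CCGG sites of the genome the shares were 79.9% and 84.9%. Low counts and loss from the list go together by construction, because sites under 5 counts are not listed.

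Of the 668 CCGG sites tested in the Dlk1-Meg3 domain, 103 were called higher in the differentiated library, which is 15.4% beside 9.89% of all 763323 tested sites, and 72 were called lower, which is 10.8% beside 11.5%. The median ratio of the tested sites was 0.26. Of the calls, 58.9% were higher, but 47.6% with median-ratio scaling (80 higher and 88 lower) and 43.3% with the RPM divisors (71 and 93). The genome's shares moved with the scaling too. With median-ratio scaling 11.98% of the domain's tested sites were called higher beside 7.15% of the genome's, and 13.2% lower beside 14.4%. With the RPM divisors the shares were 10.6% beside 6.24% and 13.9% beside 15.5%. Under all 3 scalings the share called higher lay above the genome's and the share called lower below it. High-count sites were more common in this domain than in the genome, as given in the next paragraph. The shares were not matched for counts per site, so whether they would still differ at equal counts was not tested. In the Snrpn-Ube3a domain 22 of 256 tested sites were called higher (8.59%) and 31 lower (12.1%), both near the genome's shares, with a median ratio of -0.12. Here 41.5% of calls were higher, against 31.5% with median-ratio scaling (17 and 37), 27.6% with the RPM divisors (16 and 42) and 54.5% among sites listed in both libraries (18 and 15). The domain's shares stayed near the genome's in these cases: 6.64% higher beside 7.15% and 14.5% lower beside 14.4% with median-ratio scaling, 6.25% beside 6.24% and 16.4% beside 15.5% with the RPM divisors, and 11.0% beside 10.8% and 9.15% beside 9.80% among sites listed in both. The share called lower was further above the genome's with unlisted sites as 0 (23.0% beside 19.8%) and with a summed count of at least 20 (21.7% beside 17.8%). The shares called higher there were 15.96% beside 15.4% and 15.1% beside 14.5%. The level of the domain outside its control region gave no difference that passed the test (log2 0.01, interval -0.06 to 0.07, Fisher's exact p = 0.850), but this depended on the setting. It was lower with median-ratio scaling (log2 -0.15, Fisher's exact p = 3.28e-06) and with the RPM divisors (log2 -0.22, Fisher's exact p = 8.78e-12), and higher among sites listed in both libraries (log2 0.14, Fisher's exact p = 1.54e-04), a filter that removes sites that fell off the list.

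The low-count sites of the domains had median ratios of opposite sign. Among sites with a summed count of 10 to 19, the 95 of the Dlk1-Meg3 domain had a median log2 ratio of 0.67 and the 104 of the Snrpn-Ube3a domain one of -0.58, beside -0.18 for the genome. At 20 to 39 counts the medians were 0.17 (126 sites) and -0.26 (82 sites), beside -0.20. At 40 to 79 counts they were 0.09 (162 sites) and 0.26 (65 sites), beside 0.04. High-count sites were common only on chromosome 12, where 214 sites had 80 to 159 counts (32.04% of the domain's tested sites, 11.6% in the genome) and 71 had 160 or more (10.6%, 0.576% in the genome). Their medians, 0.23 and 0.47, lay beside genome medians of 0.32 and 0.46. These classes are set by the same counts as the ratios, and they describe the libraries without a test. Positive medians under 0.23 turn negative with the RPM divisors.

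**Figure D2:**
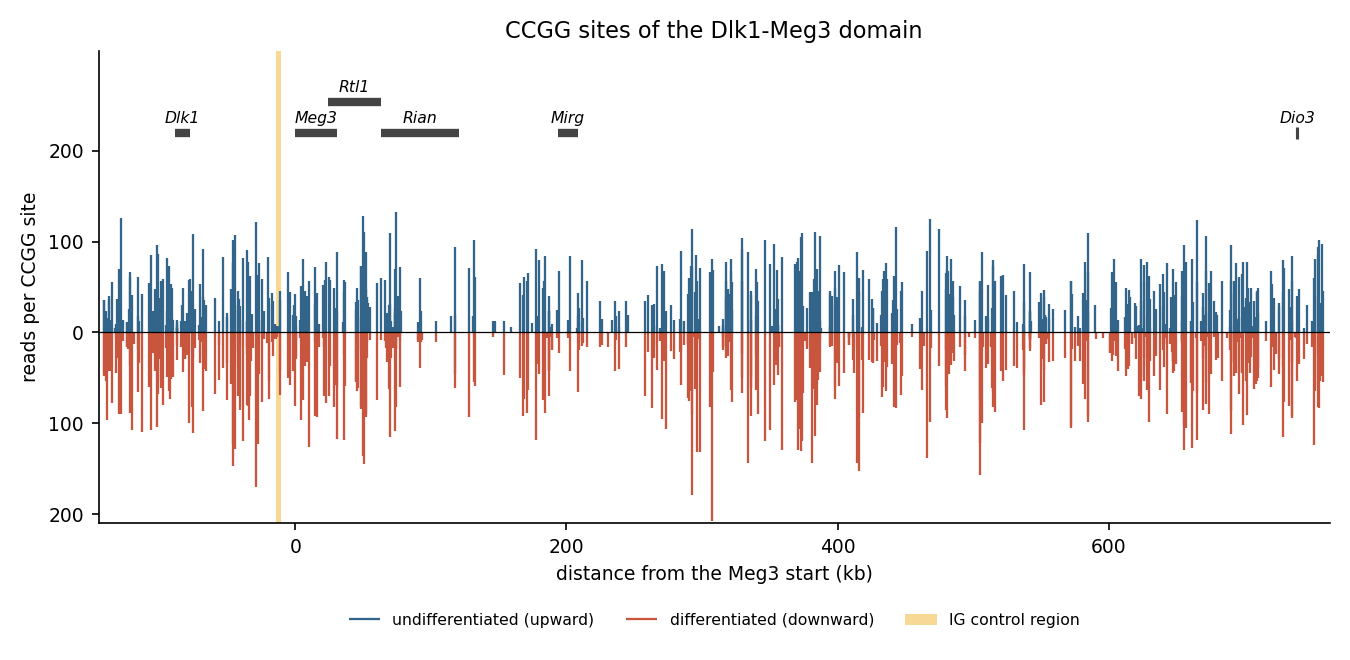
Reads per CCGG site (vertical axis, undifferentiated upward, differentiated downward) across the Dlk1-Meg3 domain by distance from the Meg3 start in kb, with gene spans as bars and the IG control region shaded. Sites are dense on both sides, sparser from Rian to Mirg, and reach 133 counts upward and 208 downward.

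The highest and lowest called sites lay outside the named genes, with 1 exception in Snrpn. In the Dlk1-Meg3 domain the site at 109463406, just past the end of Dlk1, had 59 counts and was then unlisted, at least 13.9-fold lower, and that at 110145945 had 55 and was then unlisted, at least 12.9-fold lower. The site at 109520960, between Dlk1 and the IG region, fell from 83 counts to 7 (11.2-fold lower, log2 -3.48, adjusted p = 3.43e-13 by Fisher's exact test with Benjamini-Hochberg adjustment). In the other direction, the site at 110163423 rose from 8 to 70 counts (9.30-fold, log2 3.22, Fisher's exact adjusted p = 3.90e-11). The site at 109953131 was unlisted and then had 45 counts, at least 11.95-fold higher, and that at 110221758 was unlisted and then had 28, at least 7.44-fold higher. These sites are scattered over the domain and both directions occur.

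In the Snrpn-Ube3a domain the largest changes were smaller in reads. The site at 60172490, inside Snrpn, had 30 counts and was then unlisted, at least 7.06-fold lower. The site at 61409271 had 28 and was then unlisted, at least 6.59-fold lower, and that at 61040209 fell from 33 to 5 (6.21-fold lower, log2 -2.63, Fisher's exact adjusted p = 1.59e-04). The called sites with the largest ratios, at 60525298, 61672473 and 62115253, were all unlisted and then had 25, 24 and 22 counts, at least 6.64-fold, 6.38-fold and 5.84-fold higher. Of the 31 sites called lower in this domain, 16 had dropped off the list at day 4, and 4 of the 22 called higher were newly listed there. Where all values came from listed counts, in sites listed in both libraries, 15 were called lower in place of 31.

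Over gene bodies, the maternally expressed noncoding RNA genes of chromosome 12 did not share 1 direction. Meg3 was 1.27-fold higher in the differentiated library, whereas Rian was 1.17-fold lower and Mirg 2.13-fold lower. The paternally expressed Dlk1 was 1.37-fold higher and Rtl1 1.26-fold higher. Among the members, Mirg was the only gene body called, on the lower side, beside 4.24% of the 32875 tested gene bodies called lower and 3.66% called higher. Adjusted p was under 0.05 at any fold, on the higher side, for Dlk1 and Meg3 (20.0% of all gene bodies) and on the lower side for Rian, Mirg and Snrpn (12.5% of all). The median ratio of all tested gene bodies was 0.06. For the called sites within genes given below, the genome's shares are 9.89% of tested CCGG sites higher and 11.5% lower. The counts per gene were not tested against these shares.

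**Figure D3:**
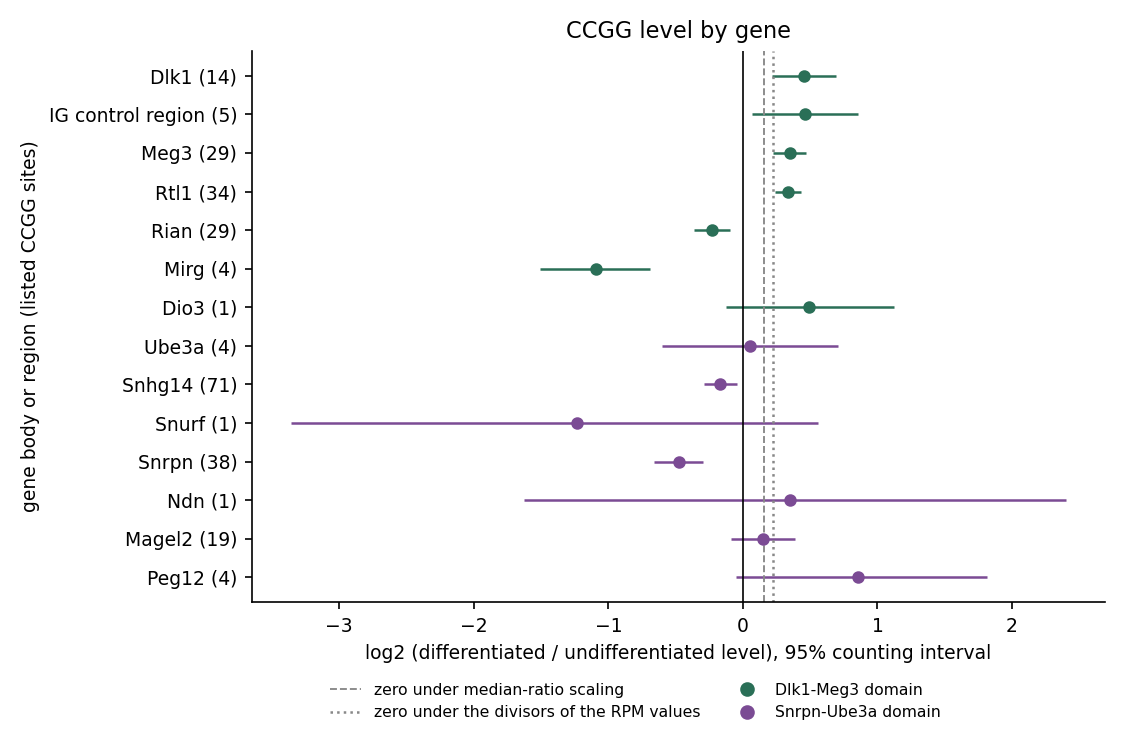
Ratio of the CCGG level in the differentiated over the undifferentiated library (log2, horizontal axis) for the body of each named gene and the IG control region, with 95% counting intervals and the number of listed CCGG sites in brackets. Mirg at -1.09 lies below 0 under every scaling drawn, the intervals of Dlk1, Meg3 and Rtl1 reach the dotted line at 0.23 or lie just above it, and Ndn, Snurf and Peg12 have the widest intervals.

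Dlk1 (chr12:109452485-109463336), which encodes a membrane-bound regulator of cell differentiation related to Notch ligands, had 261 CCGG counts before and 321 after differentiation, over 14 sites. Per kb of gene this was 24.1 counts (interval 21.2 to 27.2) and then 29.6 (26.4 to 33). The log2 ratio was 0.46 (interval 0.22 to 0.69, adjusted p = 9.58e-04 by Fisher's exact test). The rise was uneven within the gene: 2 of 12 tested sites were called higher, 109453917 (11 to 30 counts) and 109459830 (6 to 29), and none lower. The site with most reads, 109462626, rose from 58 to 100 counts (log2 0.87, Fisher's exact adjusted p = 0.00259) and stayed under 2-fold. Sites moved both ways, with 8 higher and 6 lower in level. All 14 were listed in the undifferentiated library and 10 of them also in the differentiated one. With the RPM divisors the gene body's ratio was 0.23 and its adjusted p 0.117.

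Meg3 (chr12:109540996-109571729), a maternally expressed long noncoding RNA gene next to the IG region, was the member with the most called sites on the higher side. It had 1021 counts and then 1233 over 29 sites, 33.2 per kb (31.2 to 35.3) and then 40.1 (37.9 to 42.4). The log2 ratio was 0.35 (interval 0.23 to 0.47, adjusted p = 4.12e-07 by Fisher's exact test), and 0.12 with an adjusted p of 0.107 with the RPM divisors. Of 29 tested sites 7 were called higher and 3 lower, beside 9.89% and 11.5% of all tested sites. The site with most reads, 109551314, rose from 56 to 126 counts (log2 1.26, Fisher's exact adjusted p = 1.95e-06). Called sites in opposite directions stood 39 bp apart in the gene: 109562142 rose from 16 to 70 counts and 109562181 fell from 50 to 16. Nearer the start, 109561173 fell from 52 to 6 counts, the largest drop in the gene. The gene-wide rise therefore joined sites that changed both ways.

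Around the Meg3 start the sites were more uniform. Within 1 kb of it lay 6 listed CCGG sites with 97 counts before and 197 after differentiation, and all 6 counts were higher after it. Before the start, the site at -944 bases went from 30 to 39 counts, the site at -701 bases from unlisted to 13, and the site at -406 bases from 42 to 81. Behind it, the sites at 318 and 780 bases went from 18 to 29 and from 7 to 27, and the site at 815 bases from unlisted to 8. Of these 6 sites, those at -406 and 780 bases (109540590 and 109541776) were called on their own. The summed level was 1.99-fold higher (log2 1.00, interval 0.65 to 1.35), with an adjusted p of 6.37e-07 by Fisher's exact test over 16202 gene starts tested, just under the 2-fold needed for a call. The value lay between 0.77 and 1.11 over 5 alternatives, with adjusted p of 1.79e-04 at most. The CCGG printed above for the Meg3 promoter lies between these sites, 104 bases before the start, and was unlisted in both libraries. Around the second annotated Meg3 start, at 109545398, counts went from 104 to 161 (log2 0.65, Fisher's exact adjusted p = 0.00274, and 0.0754 with the RPM divisors).

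Rian (chr12:109603945-109661716), a maternally expressed noncoding RNA gene that hosts small nucleolar RNAs, had 1007 counts and then 804 over 29 sites. Per kb it had 17.4 counts (16.4 to 18.5) and then 13.9 (12.97 to 14.9), below Meg3 in both libraries with intervals that did not overlap. The log2 ratio was -0.23 (interval -0.37 to -0.10, adjusted p = 0.00362 by Fisher's exact test). Of 28 tested sites 7 were called lower and 4 higher. The lower ones were 109604341 (60 to 8 counts), 109607118 (58 to 9), 109616641 (40 to 5) and 4 sites with 18 to 31 counts that were then unlisted. The higher ones were 109610234 (30 to 62), 109611520 (12 to 28), 109658460 (19 to 46) and 109614978 (unlisted to 18). The site with most reads, 109611188, had 109 and 115 counts and its difference did not pass the test (Fisher's exact adjusted p = 0.60). Within 1 kb of the Rian start the only CCGG site, 109604341, was the one with 60 and then 8 counts, and this start was called lower (log2 -2.82, Fisher's exact adjusted p = 3.68e-08). Over all gene starts tested, 7.87% were called lower and 7.24% higher.

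Mirg (chr12:109734981-109749458), the maternally expressed noncoding RNA gene that hosts a large group of microRNAs, had 170 counts and then 71. All 4 of its listed sites were lower in the differentiated library: 109735292 fell from 67 to 23 and was called, 109743845 went from 84 to 42, 109741812 from 14 to 6, and 109748700 from 5 to unlisted. Per kb the gene had 11.7 counts (10.04 to 13.6) and then 4.90 (3.83 to 6.19), intervals that did not overlap. The log2 ratio was -1.09 (interval -1.50 to -0.69, adjusted p = 6.65e-07 by Fisher's exact test), and it lay between -1.32 and -1.09 over 5 alternatives. Within 1 kb of the Mirg start 2 sites had 92 and then 29 counts (log2 -1.58, Fisher's exact adjusted p = 3.03e-06), the other member start called lower. The value rests on 4 sites, of which 2 carry most of the reads.

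Rtl1 and Dio3 were described as the other protein-coding genes of the domain. Rtl1, a gene derived from a retrotransposon with a role in the placenta, spans chr12:109564900-109604418 in RefSeq and there overlaps the end of Meg3 and the start of Rian, so reads in the overlaps count for both. It had 1543 and then 1829 counts over 34 sites (log2 0.33, interval 0.24 to 0.43, Fisher's exact adjusted p = 1.43e-09), and 0.11 with an adjusted p of 0.0736 with the RPM divisors. Of its sites 6 were called higher and 5 lower. Dio3, which encodes an enzyme that inactivates thyroid hormone, had a single listed CCGG site with 40 and then 53 counts, a difference that did not pass the test (log2 0.49, Fisher's exact adjusted p = 0.230).

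The microRNAs of the Dlk1-Meg3 domain show the assay at the scale of single short genes. Of the 58 hairpins that RefSeq places in the domain, 6 contain a CCGG, 8 CCGGs in all, of which 4 were listed before and 3 after differentiation. Over all 1005 hairpins with a position, 31.0% and 37.4% of 174 CCGGs were listed. The 4 hairpins with a listed site are printed from RefSeq (GRCm38.p6), 5′ to 3′, with the CCGG in capitals.

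Mir673, chr12:109571990-109572080, plus strand: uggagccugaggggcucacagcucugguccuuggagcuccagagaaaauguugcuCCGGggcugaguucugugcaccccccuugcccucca
Mir433, chr12:109591715-109591838, plus strand: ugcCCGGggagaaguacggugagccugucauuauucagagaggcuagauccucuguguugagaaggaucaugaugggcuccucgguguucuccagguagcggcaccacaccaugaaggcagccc
Mir341, chr12:109611500-109611595, plus strand: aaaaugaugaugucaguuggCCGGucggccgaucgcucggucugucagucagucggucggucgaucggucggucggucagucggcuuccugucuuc
Mir1193, chr12:109715671-109715791, plus strand: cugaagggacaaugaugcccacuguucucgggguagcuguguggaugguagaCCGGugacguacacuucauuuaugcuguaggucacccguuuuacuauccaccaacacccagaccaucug

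The site in Mir673 had 89 counts before and 117 after differentiation, that in Mir433 had 17 and 23, and that in Mir341, inside Rian, had 12 and 28. Only the Mir341 site was called (log2 1.31, Fisher's exact adjusted p = 0.0336). The site in Mir1193 had 10 counts and was then unlisted. Mir329, with 1 CCGG, and Mir1247, with 3, had none listed. In 2 of the 4 hairpins with a listed site the CCGG falls within a mature microRNA. The mature sequences are printed with the seed, bases 2 to 8, in capitals, since the CCGG of the first makes up bases 2 to 5 and that of the second begins at base 8. Their seeds differ.

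mmu-miR-673-3p: uCCGGGGCugaguucugugcacc
mmu-miR-1193-5p: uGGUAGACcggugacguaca

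In the Snrpn-Ube3a domain, Snrpn and Ube3a were read far more thinly than the chromosome 12 members. Magel2, described below, was read more densely than any of them. Snrpn, which encodes a splicing protein, spans chr7:59982495-60450177 in RefSeq with its upstream exons and had 592 counts and then 344 over 38 sites. Per kb this was 1.27 counts (1.17 to 1.37) and then 0.736 (0.660 to 0.818), well under every chromosome 12 member. The log2 ratio was -0.48 (interval -0.66 to -0.29, adjusted p = 4.75e-06 by Fisher's exact test), and 9 of 38 tested sites were called lower and 0 higher. Of the 9, 6 went from 18 to 30 counts to unlisted, and the others were 60012523 (44 to 8), 60257983 (39 to 11) and 60344042 (25 to 8). The listed sites fell from 35 to 22, with 16 listed only before and 3 only after differentiation.

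The lower level of Snrpn held under the other scalings and treatments of unlisted sites. The log2 ratio was -0.70 with unlisted sites as 0, -0.63 with median-ratio scaling and -0.70 with the RPM divisors. The first of these settings enlarges a fall by its construction, since 16 sites were listed only before and 3 only after differentiation. When only the 19 Snrpn sites with listed counts on both sides were kept, the log2 ratio was -0.10 with an adjusted p of 0.555 by Fisher's exact test, but this filter removes sites because they fell under 5 counts and so shrinks a fall by its construction. The site with most reads, 60267530, had 30 and then 42 counts (log2 0.57, Fisher's exact adjusted p = 0.233). Of the 38 sites 12 were higher in level and 26 lower. None of the 4 annotated Snrpn starts had a listed CCGG site within 1 kb in either library. Snurf, which shares its first exons with Snrpn, had 1 site with 10 counts that was then unlisted (Fisher's exact adjusted p = 0.315).

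**Figure D4:**
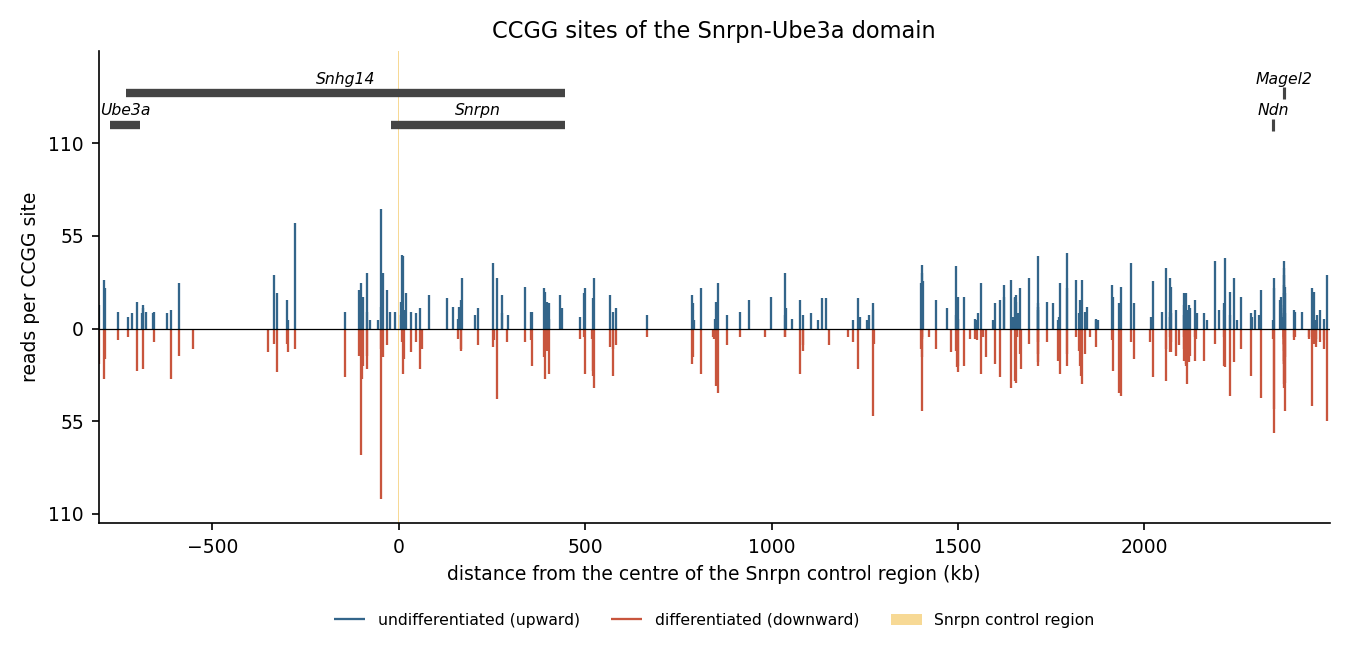
Reads per CCGG site (vertical axis, undifferentiated upward, differentiated downward) across the Snrpn-Ube3a domain by distance from the centre of the Snrpn control region in kb, with gene spans as bars and the control region shaded. Reads are thin over most of the domain, the highest sites having 71 and 101 counts, and gaps without a listed site lie on both sides of the control region.

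Ube3a (chr7:59228750-59310837), which encodes a ubiquitin ligase, had 42 and then 37 counts over 4 sites, 0.512 counts per kb (0.369 to 0.692) and 0.451 (0.317 to 0.621). The intervals overlapped, and the ratio of 0.05 on the log2 scale (interval -0.60 to 0.71, Fisher's exact adjusted p = 0.959) turned to -0.10 with unlisted sites as 0, to -0.10 with median-ratio scaling and to -0.17 with the RPM divisors. The 4 sites had 10 and 7 counts (59250548), 7 and 5 (59277011), 9 and unlisted (59288558) and 16 and 25 (59302511). None was called. No site was listed within 1 kb of its start, where the printed sequence has 2 CCGGs. Snhg14 (chr7:59272737-60450177), the long transcript that runs from the Snrpn side over Ube3a in the opposite direction, overlaps Ube3a, Snurf and Snrpn, and counts there cannot be divided among them. It had 1173 and then 900 counts over 71 sites (log2 -0.17, Fisher's exact adjusted p = 0.0259), and 0.06 over sites listed in both libraries, where the same filter applies. With unlisted sites as 0 it was -0.29 and with the other scalings -0.32 and -0.39.

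Between Ube3a and the Snrpn control region lies a long array of small nucleolar RNA genes. RefSeq places 206 of them at 59347173 to 59980945, and none held a listed site of any motif in either library. On chromosome 12, 1 of 19 small nucleolar RNA genes held a listed site, a CCGG. Copies of such a gene are alike, and how the deposited tables treat reads that map to several places is not given in the sources used here.

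The 4 genes at the far end of the domain, Magel2, Ndn, Mkrn3 and Peg12, differed in how densely they were read. Magel2 (chr7:62376979-62381640), an intronless gene of the MAGE family, had 274 and then 295 counts over 19 sites in 4.66 kb. At 58.8 counts per kb (52.0 to 66.2) and then 63.3 (56.3 to 70.9) it was the most densely read of the 8 members in both libraries, and its intervals lay above those of all other members. The ratio did not pass the test (log2 0.15, interval -0.09 to 0.39, Fisher's exact adjusted p = 0.360), and it was -0.01 with median-ratio scaling and -0.08 with the RPM divisors. Within the gene 62380280 rose from 21 to 49 counts and 62379081 from 6 to 19, and 62379207 fell from 32 to 13. All 3 were called, and the site with most reads, 62377950, was not, with 40 and 35 counts. Ndn (chr7:62348277-62349928), a growth-suppressing gene of the same family, had 1 listed site, 62348677, with 5 and 6 counts, at the lowest count the tables list. Mkrn3 had no listed CCGG site. Peg12 had 5 and then 25 counts over 4 sites, none listed in both libraries (log2 0.86, Fisher's exact adjusted p = 0.128). With unlisted sites as 0 its log2 ratio was 2.41 and passed the test (Fisher's exact adjusted p = 8.03e-04).

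In order of CCGG counts per kb the members ran Magel2, Meg3, Dlk1, Rian, Mirg, Ndn, Snrpn and Ube3a before differentiation, and the order was the same after it. Neighbours whose intervals overlapped were Ndn and Snrpn before differentiation and Mirg and Ndn after it, so the place of Ndn, with 1 site, is uncertain. A count per kb depends on how many CCGG motifs a gene holds as well as on how often they are methylated, so the order is one of reads and not of methylation levels.

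Along the domains, the ratio varied more from window to window on chromosome 7, where windows held fewer reads. Windows with a site had 5 to 452 CCGG counts per library there and 1138 to 4474 on chromosome 12. Whether the wider spread goes beyond counting error was not tested. The 9 windows of 100 kb in the Dlk1-Meg3 domain held 37 to 104 listed CCGG sites, more than 66.6% to 98.6% of the genome's 25419 windows with a site, whose median was 23. Of the 9, 8 had a log2 ratio above 0, up to 0.37, and the window that holds Rian was at -0.15. With median-ratio scaling 6 of the 9 were above 0 and with the RPM divisors 5. The 33 windows of the Snrpn-Ube3a domain held 0 to 28 sites, with a median of 8 and 2 windows without any. Their ratios ran from -1.19 to 0.62, 13 above 0 and 18 below (12 and 19 with median-ratio scaling, 8 and 23 with the RPM divisors). Intervals lay wholly above 0 in 7 and wholly below in 10 of them (4 and 11 with median-ratio scaling, 1 and 12 with the RPM divisors). In the Dlk1-Meg3 domain 7 lay wholly above and 1 wholly below (5 and 1, and 2 and 3, with these scalings). The genome's windows had an interquartile range of log2 ratios of -0.13 to 0.20. How many of them have intervals wholly above or below 0 was not analysed here, so these counts have no genome share beside them.

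**Figure D5:**
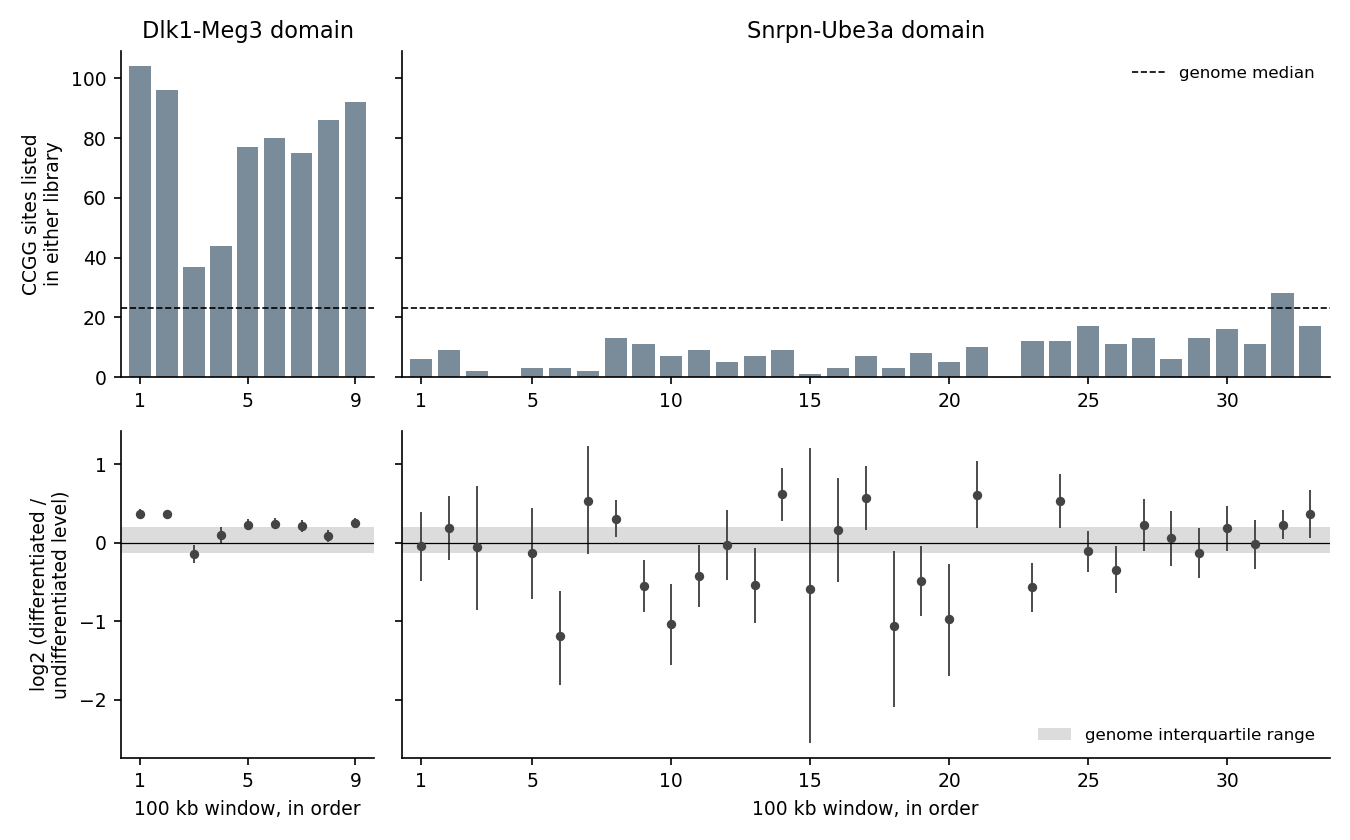
Listed CCGG sites (upper panels) and log2 ratio of the level in the differentiated over the undifferentiated library with 95% counting intervals (lower panels) in successive 100 kb windows of each domain, beside the genome's median and interquartile range. Windows of the Dlk1-Meg3 domain hold 37 to 104 sites with ratios of -0.15 to 0.37, and those of the Snrpn-Ube3a domain hold 0 to 28 sites with ratios of -1.19 to 0.62.

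Methylation outside CpG was read more often in the differentiated library in both domains. CCAGG and CCTGG sites gave 23.9% of the counts of the Dlk1-Meg3 domain before differentiation (Wilson interval 23.4 to 24.3) and 30.3% after it (29.9 to 30.8), a rise of 6.43 percentage points (Fisher's exact p = 5.15e-84). In the Snrpn-Ube3a domain the share was 20.7% (19.6 to 21.9) and then 29.8% (28.6 to 31.1), a rise of 9.05 points (Fisher's exact p = 8.83e-26). The whole genome went from 18.8% to 26.2%, a rise of 7.44 points, the same direction as in the domains. Over sites listed in both libraries it was 2.62 and 2.51 points, a filter that removes newly listed sites and so shrinks a rise by its construction. With only those non-CpG sites that had no listed CCGG within 100 bp it was 6.91 and 8.52 points. Listed non-CpG sites went from 541 to 767 and from 79 to 121.

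By gene, non-CpG counts went in some members the other way from CCGG counts. Rian had 115 and then 218 non-CpG counts and Mirg 142 and then 230, while their CCGG counts were lower. Snrpn had 71 and then 141. In Meg3, where both were higher, non-CpG counts went from 304 to 601 and their listed sites from 18 to 39. Dlk1 went from 141 to 189. Magel2 went from 68 to 94, but 3 of its 8 non-CpG sites lie within 16 bp of a listed CCGG site, close enough to share its reads, and without them the counts were 36 and 35. Without such sites Dlk1 had 124 and then 153 counts, Meg3 226 and 499, Rian 102 and 207 and Snrpn 44 and 99, and Mirg, Ube3a and Ndn had no such site. Non-CpG sites within 16 bp of each other were kept, so reads they share are counted more than once. Examples are 109613119 and 109613127 in Rian (unlisted to 21 and to 19 counts) and 109548347 and 109548355 in Meg3 (30 to 65 and 12 to 32). Ube3a had none and then 6, and Ndn 12 and then 7. These counts per gene were not tested, and the share of non-CpG counts was also higher in the whole differentiated library.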

How the data were processed

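The data are 2 methylRAD libraries, 1 per group, each with a deposited table of sites. Per the submitters' processing notes, Bowtie2 2.3.3, FastQC 0.11.3 and the GRCm38 build were used; filters, the minimum count and the treatment of reads that map to several places are not given in the sources used here. The authors deposited whole-number read counts per site and a column headed RPM, treated as a score because its divisors (2221855 and 2446243) are not the totals of listed counts, which are 20550450 and 21291239. The lowest listed count is 5. Listed positions were checked against CCGGs in RefSeq promoter sequences: 5710 matched the first base of the motif, against 1 and 6 when shifted by 1 base.

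The 8 members and all lists were chosen with earlier results of these data known. Positions whose motif differed between libraries (50 in all) were left out of comparisons. Sites listed in 1 library were given 4 counts in the other, and a summed count of at least 10 was required. Fisher's exact tests were adjusted over all CCGG sites, gene bodies or gene starts with Benjamini-Hochberg, at 0.05. Shares have Wilson 95% intervals, and counts per kb exact Poisson intervals. Sites named in the text are every CCGG site in a control region, the 3 called sites at each end of the ratios per domain, the site with most counts in each member, and, chosen after their values were seen, called sites, sites near starts and sites of small sets. Gene bodies, gene starts, 100 kb windows, count classes, promoter and hairpin motifs were added after the tables were seen. All 14 genes named in the lists matched RefSeq. The tests planned for the Snrpn control region gave no value, as it has no listed site. On simulated data, 36% of 200 sites changed 4-fold among 754515 tested were recovered, with 0 in the wrong direction and 0 unchanged sites called, and 86.9% of 199 gene bodies changed 2.5-fold among 32776 tested, with 0 in the wrong direction and 1 unchanged gene body called. These rates hold for the simulated counts only. The share of false calls in the real libraries was not tested. Python 3.11.15, numpy 2.4.6, pandas 2.3.3, scipy 1.17.1 and matplotlib 3.10.9 were used.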

Additional observations from a re-analysis of the deposited data

How the results depend on the processing

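With 1 library per group no spread between samples could be estimated, and a count under 5 cannot be told from no methylation. No paired analysis was possible because each group has 1 library. Alternatives for the Snrpn control region gave no value, with its bounds as given, widened or narrowed by 500 bp. Median-ratio scaling gave log2 0.31 for the IG region and the RPM divisors 0.24, both no longer past the threshold, and the RPM divisors gave 0.0052 for the rest of its domain, also no longer past it. The difference between the IG region and the rest turned to -0.0139 without the highest site of the IG region. For the rest of the Snrpn-Ube3a domain (0.01), the log2 ratio was -0.0549 with unlisted sites as 0 and -0.0325 without the 1000 highest sites, neither past the threshold. It was -0.15 with median-ratio scaling, -0.22 with the RPM divisors and 0.14 over sites listed in both libraries, all 3 past it. Its called sites numbered 34 higher and 49 lower with unlisted sites as 0, and 15 lower over sites listed in both. With unlisted sites as 0 these were 15.96% and 23.0% of its tested sites, beside 15.4% and 19.8% in the genome. Over sites listed in both, 9.15% were called lower beside 9.80%. Among gene bodies, Ube3a turned to -0.10 with unlisted sites as 0, -0.10 with median-ratio scaling and -0.17 with the RPM divisors, Magel2 to -0.00545 and -0.0755 with these scalings, and Snhg14 to 0.0639 over sites listed in both, while Peg12 passed the test with unlisted sites as 0 (log2 2.41). The Dlk1 start (log2 -0.21, adjusted p = 0.798 by Fisher's exact test) turned to 0.89 over sites listed in both. Of 62 values for 13 gene bodies, 51 kept direction and side of the threshold. The non-CpG shares of both domains rose under all 4 alternatives tried for each. The alternatives for gene bodies, starts, windows and non-CpG counts by gene and the RPM divisors for called sites were chosen after seeing the data. The causes of these changes were not tested.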

Other observations

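Sites that stand close together did not always change together in the Dlk1-Meg3 domain. Among pairs of called CCGG sites 17 to 100 bp apart, 4 of 7 changed in the same direction and 3 in opposite directions. The opposite pairs were 109495353 and 109495432, 79 bp apart between Dlk1 and the IG region, 109562142 and 109562181 in Meg3, and 109913343 and 109913436, 93 bp apart, beyond Mirg. In the whole genome 853 of 2078 such pairs (41.0%) had opposite directions. The Snrpn-Ube3a domain had no such pair.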
